A study of Mus musculus with 8 samples.

Results

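A set of 10 genes that mark fat cells was followed in the soleus of control and Dnm2 wt/K562E mice. They were Adipoq, Plin1, Cidec, Lep, Cfd, Retn, Pck1, Fabp4, Pparg and Adrb3, chosen by their symbols, and all 10 were found among the 22880 genes counted and among the 14001 tested. The soleus lies in the calf and is rich in slow fibres, and its RNA was sequenced in 4 control mice (Dnm2 +/+) and in 4 heterozygous mice (Dnm2 +/K562E, written Dnm2 wt/K562E here). All 8 were C57BL/6 males (C57bl/6 J in the study's methods) aged 2 months. The point mutation was introduced at the endogenous Dnm2 locus by homologous recombination and is present in every cell type, fat cells included, and a LoxP site remains in an intron of the mutant allele. Controls were littermates or mice matched for age.

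Adipocytes store triglyceride in a single large droplet, whose coat proteins decide when lipases gain access to it. They also act as an endocrine tissue, releasing hormones such as adiponectin and leptin, and the nuclear receptor encoded by Pparg drives and maintains their formation. Skeletal muscle holds few of them, between the fibres and along vessels, and fat also adheres to the outside of a dissected muscle. The counts come from whole soleus, so fat within the muscle and fat around it were not separated, and fewer adipocytes cannot be told apart from less adipocyte RNA per cell.

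Total counts ran from 33407430 to 48832814 reads per mouse. TMM factors of edgeR, which scale libraries by genes that differ little, were 0.91 to 0.96 for control libraries and 1.04 to 1.10 for those of the mutant. Any pair of mice of a genotype differed by more than sampling noise (the chi-square divided by its degrees of freedom was at least 13.0), and all 8 counted as separate replicates. A list of 8 muscle genes, with the slow myosin gene Myh7 and 5 other slow fibre genes beside Acta1 and Ckm, which all skeletal fibres use, summed to between 46562 and 55853 normalized CPM in controls and between 29181 and 34715 in Dnm2 wt/K562E mice, where normalized CPM are reads scaled to a common library size with the TMM factors. The 10 adipocyte genes together made up 495.1 to 1004 CPM in controls and 596.9 to 740.7 CPM with the mutation. Much of this sum was Fabp4, which other cells make as well. It alone had 386.6 to 577.7 CPM in controls and 295.9 to 473.4 CPM with the mutation, so the sum is not a measure of adipocytes.

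The upstream sequences of 2 hormone genes, Adipoq and Lep, are given here. Whether these sequences bear on the levels in the mice was not tested. RefSeq promoters of GRCm38.p6 were found for 8 of the 10 genes, with 11 start sites in all, and none for Fabp4 and Adrb3. The 250 bases before each start were searched on both strands for TTGCNNAA (a form of the C/EBP motif), the direct repeat of AGGTCA spaced by 1 base (bound by PPAR and RXR), TGACGTCA (cAMP response element), CCAAT and TATAAA. Capitals mark the matches, 5′ to 3′ on the strand of the gene, and a CCAAT box on the other strand reads ATTGG.
Lep, plus strand, chr6:29059971-29060220: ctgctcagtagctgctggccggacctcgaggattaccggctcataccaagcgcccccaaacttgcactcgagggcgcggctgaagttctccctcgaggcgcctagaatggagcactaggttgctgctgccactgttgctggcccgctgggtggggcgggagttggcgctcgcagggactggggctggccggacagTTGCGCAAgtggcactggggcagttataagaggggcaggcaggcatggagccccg
Adipoq, plus strand, chr16:23146286-23146535: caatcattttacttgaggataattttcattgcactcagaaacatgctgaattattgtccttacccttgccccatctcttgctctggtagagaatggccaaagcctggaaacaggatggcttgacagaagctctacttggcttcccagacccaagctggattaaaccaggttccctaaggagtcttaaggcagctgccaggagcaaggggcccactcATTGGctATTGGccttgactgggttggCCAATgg
The C/EBP-type motif was found before 4 of the 11 starts, those of Lep, Cidec, Pparg and Plin1. Of all 32851 promoters, 9.56% hold it in a window of this length. In Lep the match was the palindrome TTGCGCAA, from 55 to 48 bases before the start. CCAAT boxes were found before 3 of the 11 starts (33.8% of all promoters). They were in Adipoq, where 3 lay within 34 bases of the start, and in Pparg. TATAAA was found before 1 start, of Pparg (12.4% of all promoters), and TGACGTCA before none (1.55%). A search for AGGTCA itself found it before 2 starts, both of Pparg (14.0%). The letters of the PPAR and RXR repeat were present in no window of these genes and in 0.0335% of all promoters.

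With the quasi-likelihood test of edgeR, a gene was called when its adjusted p was under 0.05 and its log2 fold change reached 0.58 upwards or downwards. None of the 10 genes was called, beside 20.7% of all tested genes (7.85% lower and 12.9% higher in Dnm2 wt/K562E soleus). The exact test of edgeR and DESeq2 called none of the 10 either. There Pparg had an adjusted p of 0.0456 (exact test of edgeR) and 0.0384 (DESeq2) but did not reach the fold criterion. In the quasi-likelihood test 1 of the 10, Pparg, had an unadjusted p under 0.05. The fitted log2 fold changes were below 0 in all 10, with a median of -0.33 beside 0.01 over all tested genes, of which 49.3% were below 0. In the difference of mean log2 CPM, Lep (0.37) and Cidec (0.04) were above 0. The other genes ran from -0.43 (Pck1) to -0.07 (Adrb3). Exact two-sided permutation tests of this difference gave unadjusted p from 0.114 (Pparg) to 0.943 (Adrb3). Since most of these genes move together in a mouse, the common sign of the fitted values is not 10 separate observations. In each of the 10 genes the ranges of the genotypes overlapped, whereas 41.2% of all tested genes had no overlap.

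**Figure D1:**
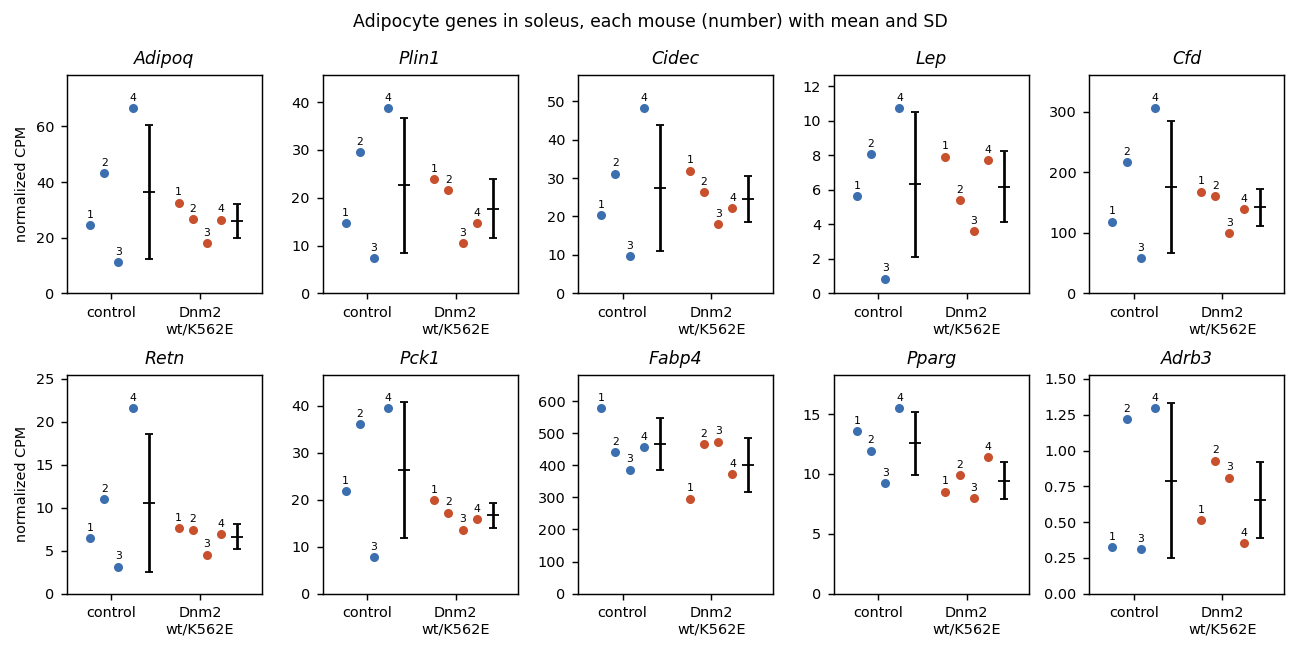
Normalized CPM of the 10 adipocyte genes in each mouse, with a panel per gene and an axis starting at 0. Points are single mice with their numbers (blue control, orange Dnm2 wt/K562E), and the black bars give mean and SD of 4 mice. In 9 panels control 4 is the highest point, and in 8 panels control 3 is the lowest.

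Among the secreted products, the adiponectin gene Adipoq (chromosome 16, 23146536 to 23158028) had 24.4, 43.1, 11.3 and 66.6 CPM in controls 1 to 4 and 32.6, 26.6, 18.0 and 26.5 CPM in Dnm2 wt/K562E mice 1 to 4. All 4 Dnm2 wt/K562E mice lay between the lowest and the highest control. The means were 36.4 ± 24.0 and 25.9 ± 6.01 CPM (SD, n = 4 each), and the log2 fold change was -0.49 with a 95% interval from -1.40 to 0.43 (adjusted p = 0.371, edgeR quasi-likelihood test, Benjamini-Hochberg adjusted). Cfd (chromosome 10, 79890853 to 79892655) encodes adipsin, the factor D of the alternative complement pathway. It had 118.6, 217.2, 58.8 and 306.1 CPM in controls and 168.1, 160.3, 99.0 and 139.7 CPM in Dnm2 wt/K562E mice. The order of the mice was that of Adipoq in controls, and the log2 fold change was -0.30 (95% interval -1.17 to 0.56, adjusted p = 0.56, same test).

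Retn (chromosome 8, 3655770 to 3660110) encodes resistin, a hormone that mouse adipocytes release. It had 6.49, 10.99, 3.14 and 21.6 CPM in controls and 7.58, 7.44, 4.53 and 6.95 CPM in Dnm2 wt/K562E mice. Control 4 was far above the next mouse, and the other 7 mice lay between 3.14 and 10.99 CPM. The log2 fold change was -0.66 (95% interval -1.67 to 0.34, adjusted p = 0.261, edgeR quasi-likelihood test). Lep (chromosome 6, 29060220 to 29073877), the gene of the satiety hormone leptin, had 5.63, 8.08, 0.851 and 10.7 CPM in controls and 7.93, 5.42, 3.60 and 7.73 CPM in Dnm2 wt/K562E mice. Control 3, with 38 reads against 151 to 365 in the other mice, was far below the rest, and the remaining 7 mice overlapped. Its fitted log2 fold change was -0.03 (95% interval -1.20 to 1.14, adjusted p = 0.971, same test), while the difference of the mean log2 CPM was 0.37 in the other direction (exact two-sided permutation test, p = 0.886).

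Plin1 and Cidec encode proteins of the lipid droplet surface: perilipin 1 guards the droplet against lipases, and CIDEC promotes the fusion of small droplets into a large one. Plin1 (chromosome 7, 79720218 to 79732903) had 14.7, 29.5, 7.39 and 38.8 CPM in controls and 23.9, 21.6, 10.5 and 14.8 CPM in Dnm2 wt/K562E mice. Cidec (chromosome 6, 113424634 to 113435760) had 20.3, 31.1, 9.74 and 48.2 CPM in controls and 31.9, 26.3, 17.9 and 22.2 CPM in Dnm2 wt/K562E mice. In both genes controls 4 and 2 were at the top of their group and control 3 was the lowest of all mice. The log2 fold change was -0.35 for Plin1 (95% interval -1.30 to 0.60, adjusted p = 0.54) and -0.15 for Cidec (95% interval -0.98 to 0.68, adjusted p = 0.771, both edgeR quasi-likelihood test).

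Pck1 (chromosome 2, 173153048 to 173159273) encodes the cytosolic phosphoenolpyruvate carboxykinase, which in fat supplies glycerol for the re-esterification of fatty acids. It had 21.9, 36.1, 7.77 and 39.5 CPM in controls and 19.96, 17.2, 13.6 and 15.8 CPM in Dnm2 wt/K562E mice. Controls 1, 2 and 4 were above every Dnm2 wt/K562E mouse, and control 3 was below all of them. The log2 fold change was -0.66 (95% interval -1.49 to 0.18, adjusted p = 0.184, edgeR quasi-likelihood test). Adrb3 (chromosome 8, 27225776 to 27250616), the beta-3 adrenergic receptor through which catecholamines start lipolysis, was the least abundant gene, with 11, 41, 14 and 44 reads in controls 1 to 4 and 19, 40, 34 and 13 reads in the mutant mice. Levels were 0.33, 1.218, 0.31 and 1.295 CPM in controls and 0.52, 0.93, 0.81 and 0.35 CPM in Dnm2 wt/K562E mice, with no separation, and a log2 fold change of -0.25 (95% interval -1.39 to 0.90, adjusted p = 0.729, same test).

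Fabp4 and Pparg are also used outside adipocytes. FABP4, a carrier of fatty acids, is made by capillary endothelium and by macrophages as well, and PPARG by macrophages. Fabp4 (chromosome 3, 10204088 to 10208576) had 577.7, 440.4, 386.6 and 455.7 CPM in controls and 295.9, 465.0, 473.4 and 372.3 CPM in Dnm2 wt/K562E mice. Here control 1 was the highest mouse and Dnm2 wt/K562E mouse 1 the lowest, an order unlike that of Adipoq. The log2 fold change was -0.21 (95% interval -0.56 to 0.13, adjusted p = 0.297, edgeR quasi-likelihood test). Pparg (chromosome 6, 115360951 to 115490399) had 13.6, 11.9, 9.23 and 15.5 CPM in controls and 8.53, 9.92, 7.97 and 11.4 CPM in Dnm2 wt/K562E mice. Controls 1, 2 and 4 lay above every Dnm2 wt/K562E mouse and control 3 lay among them. Its log2 fold change of -0.41 had a 95% interval from -0.77 to -0.05, which did not include 0, but the adjusted p was 0.064 (edgeR quasi-likelihood test, Benjamini-Hochberg adjusted) and the exact two-sided permutation test gave p = 0.114.

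**Figure D2:**
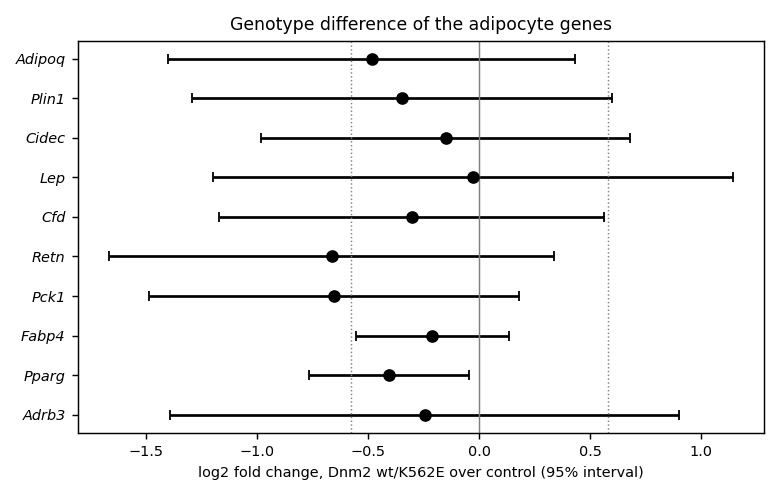
Log2 fold change of each adipocyte gene, Dnm2 wt/K562E over control, with 95% intervals from the quasi-likelihood fit of 4 against 4 mice. Dotted lines mark a log2 fold change of 0.58 in either direction. All points lie below 0, and the interval of Pparg alone (-0.77 to -0.05) leaves out 0.

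A single library decided several of these values. Without control 3, the lowest control in all 10 genes, the log2 fold change of Pck1 was -0.97 (adjusted p = 0.00335) and that of Retn was -0.98 (adjusted p = 0.045, both edgeR quasi-likelihood test), so that 2 of the 10 genes were then called lower. Without control 4, the log2 fold changes were -0.02 for Adipoq, 0.04 for Plin1, 0.10 for Cfd and -0.05 for Retn, and the median over the 10 genes was 0.01. Without control 3 this median was -0.57. Control 3 also had the deepest library, at 48832814 reads.

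Compared per kilobase of exon, Cfd was at 190.0 ± 118.2 CPM per kilobase in controls, followed by Fabp4 at 103.6 ± 18.0 and Adipoq at 26.3 ± 17.4 (SD, n = 4 each). Then came Cidec at 14.7, Pck1 at 7.67, Retn at 6.68, Plin1 at 4.86, Pparg at 4.25, Lep at 1.89 and Adrb3 at 0.23 CPM per kilobase. The order of the 10 means was the same in Dnm2 wt/K562E mice, from 153.8 CPM per kilobase for Cfd to 0.19 for Adrb3. In controls the neighbours Fabp4 and Adipoq, Pparg and Lep, and Lep and Adrb3 were farther apart than the larger of their SDs, and the other neighbouring pairs were not. The annotated exons of Fabp4 together cover its whole span of 4489 bases, and its value per kilobase depends on that length, so that the order of Cfd and Fabp4 is not settled. In CPM, without regard to length, Fabp4 was higher than Cfd (465.1 and 175.2 CPM in controls).

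The genes varied far more within a genotype than most genes did. In 7 of them, Adipoq, Plin1, Cidec, Lep, Cfd, Retn and Pck1, the within-genotype SD of log2 CPM was as large as or larger than that of 97.0% to 99.7% of the tested genes. The value was 0.82 for Adipoq and 1.20 for Lep, against a median of 0.16 over all tested genes. Adrb3, with few reads, stood at 98.3% of the genes. For Fabp4 (0.28) and Pparg (0.28) it reached 74.2% and 73.4% of the genes. The spread lay mainly among controls: in 9 of the 10 genes the ratio of the highest to the lowest mouse was larger in controls than in Dnm2 wt/K562E mice, the exception being Fabp4. For Adipoq this ratio was 5.89 in controls and 1.81 in Dnm2 wt/K562E mice. With 4 mice per genotype this difference in spread was not tested.

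**Figure D3:**
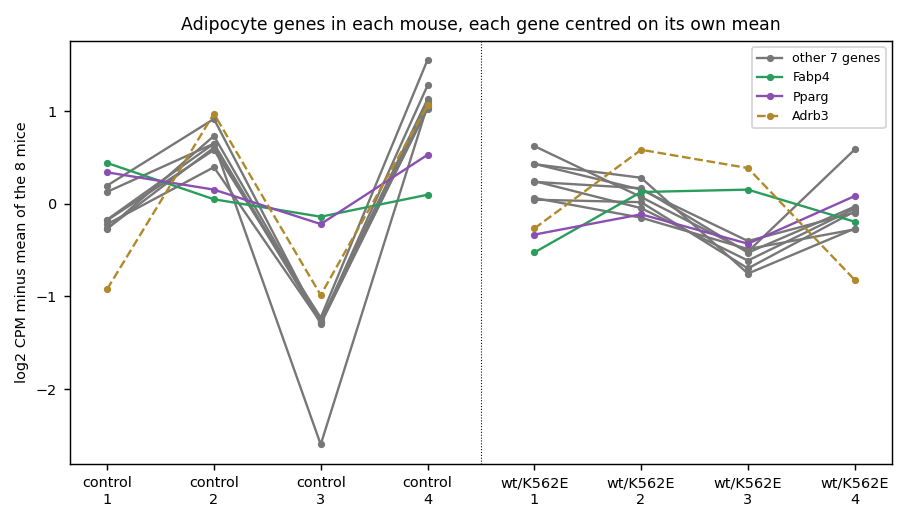
Log2 CPM of each adipocyte gene in the 8 mice, centred on its own mean over the mice. Lines join the values of a gene and the mice have no order. The 7 grey genes run nearly in parallel, with control 3 low and control 4 high, apart from a deeper drop of Lep at control 3. Fabp4 stays within a 1.95-fold range.

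In all, 8 of the 10 genes placed the controls in the same order, with control 4 highest, then controls 2, 1 and 3. Fabp4 and Pparg did not. To describe this likeness, each gene's deviations from its genotype mean were compared with the mean deviation of the other 9 genes over the 8 mice (Pearson r, given as a description). It was 0.92 to 0.99 for the 7 genes named above, 0.71 for Pparg, 0.67 for Adrb3 and 0.05 for Fabp4. With control 3 left out of the correlation it was 0.79 for Lep, 0.41 for Pparg and -0.44 for Fabp4, and 0.97 for Adipoq. The genotype means still included control 3 here, so its influence was not fully removed. All points of this measure come from the same 8 libraries.

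Levels relative to Adipoq in the same mouse, a measure chosen after the values were seen, were much steadier than the levels themselves for some of the genes. The CPM of Plin1, Cidec, Cfd, Retn and Pck1 spanned 4.95-fold to 6.87-fold over the 8 mice, while their ratios to Adipoq spanned 1.31-fold to 1.51-fold. The ratio of Cfd to Adipoq was 4.86, 5.04, 5.20 and 4.59 in controls and 5.16, 6.02, 5.50 and 5.26 in Dnm2 wt/K562E mice. That of Lep was 0.23, 0.19, 0.0752 and 0.16 in controls and 0.24, 0.20, 0.20 and 0.29 in Dnm2 wt/K562E mice. The genotypes overlapped in all 9 ratios, and the exact two-sided permutation tests gave unadjusted p-values from 0.0571, for Cidec and Cfd, to 0.971, where 0.0286 is the smallest p possible with 4 against 4 mice. The ratio of Fabp4 to Adipoq spanned 4.997-fold, more than the CPM of Fabp4 itself (1.95-fold). That of Pparg spanned 3.51-fold, also more than its CPM (1.94-fold). The ratios of Lep and Adrb3 spanned 3.87-fold and 3.41-fold, against 12.6-fold and 4.13-fold in CPM.

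By the same measure of likeness, now against the mean of all 10 genes, the closest 10 genes outside them were Prkar2b (r = 0.99), Cdo1, Ankef1, Scd1, Cyp4f18, Glb1l2, Fbxo47, Acvr1c, Vnn3 and Slc25a10 (r = 0.98). Prkar2b encodes a regulatory subunit of protein kinase A, Cdo1 cysteine dioxygenase, Scd1 the stearoyl-CoA desaturase, Acvr1c the activin receptor ALK7, and Slc25a10 the mitochondrial dicarboxylate carrier. Scd1 had 373.4, 771.7, 161.7 and 840.7 CPM in controls and 427.5, 381.6, 262.0 and 335.5 CPM in Dnm2 wt/K562E mice. Ankef1 and Fbxo47 had no read in at least 1 mouse. Of these 10 genes, 2 were called, beside 20.7% of all tested genes. Glb1l2 was lower (log2 fold change -1.08, adjusted p = 0.0448) and Cyp4f18 was higher (1.33, adjusted p = 0.0259, both edgeR quasi-likelihood test).

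Fat-related genes beyond the 10 were taken from 6 lists, of which 62 genes were tested. Over all tested genes, 7.85% were called lower and 12.9% higher, for comparison with the counts of each list. Of 14 further white adipocyte genes, 4 were lower and none was higher. They were Gpd1 (log2 fold change -1.13), the enzyme that makes glycerol 3-phosphate, Adig (-1.06), adipogenin, Plin4 (-1.05), a droplet coat protein, and Aqp7 (-0.73), a glycerol channel. Plin4 fell from 445.2 ± 125.0 to 215.3 ± 35.4 CPM (SD, n = 4 each). The genotypes of Adig overlapped, and which cells the reads of these 4 genes came from was not tested. The likeness of these 4 to the adipocyte genes was 0.71, 0.74, -0.06 and 0.15. For Acvr1c, Lgals12, Trarg1 and Hcar1, the lactate receptor, it was 0.94 to 0.98, and none of these 4 was called, with log2 fold changes from -0.71 to -0.18. Serpina12 was too low to test, with 0 to 12 reads.

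Of 14 transcription factors of fat formation and lipid control, 6 were lower and 1 was higher, beside 7.85% and 12.9% of all tested genes. Ppara, the receptor that drives fatty acid oxidation, fell from 41.0 ± 11.9 to 10.4 ± 1.14 CPM (SD, n = 4 each), a log2 fold change of -1.98 (adjusted p = 1.31e-05, edgeR quasi-likelihood test). Rxrg (-1.31), Mlxipl (-1.16), Klf15 (-1.06), Nr1h3 (-0.68) and Ppard (-0.58) were lower as well, and Klf5 (1.498) was higher. Cebpa, a factor that works with Pparg in adipocytes, had a likeness of 0.98 and was not called (0.38, 95% interval -0.28 to 1.03). The gene Cebpd of this list was not analysed here.

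In the list for the synthesis of fatty acids and triglycerides, 2 of 11 genes were lower, beside 7.85% of all tested genes. They were Dgat2 (log2 fold change -1.15), which completes triglycerides, and Lpin1 (-0.71). The count of lower genes was 4 without control 3 and 1 with library size alone. Fasn (-0.61, 95% interval -1.46 to 0.25) and Scd1 (-0.61, 95% interval -1.49 to 0.27) had a likeness of 0.92 and 0.99 and were not called. Of 13 genes of lipolysis and the droplet, 4 were lower and 1 was higher. The lower ones were Plin3 (-1.11), Plin5 (-1.08), which coats droplets of oxidative muscle, Mgll (-0.84), monoglyceride lipase, and Lipe (-0.63), hormone-sensitive lipase, and the higher one was Cidea (1.09), a relative of Cidec, which rose from 4.87 ± 1.72 to 10.3 ± 2.52 CPM (SD, n = 4 each).

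Brown fat was not detected by its defining gene. Ucp1, the uncoupling protein of brown adipocytes, had 0 reads in all 8 mice, which allows up to 3 reads or 0.067 to 0.089 CPM per mouse (counting error only), and Elovl3 had 0 to 2 reads. Of the 6 genes of this list that were tested, Zic1 (log2 fold change -0.998), Cox8b (-0.85) and Prdm16 (-0.63) were lower and Kcnk3 (1.05) was higher. Cox8b, at 451.8 ± 38.3 CPM (SD, n = 4) in controls, is also a subunit of muscle cytochrome oxidase. Among the 4 genes for reception of adipokines, the adiponectin-binding cadherin Cdh13 rose from 175.4 ± 11.8 to 290.6 ± 17.9 CPM (SD, n = 4 each), a log2 fold change of 0.73 (adjusted p = 1.43e-05, edgeR quasi-likelihood test). The leptin receptor gene Lepr (0.54) and the adiponectin receptor gene Adipor2 (-0.27) had adjusted p-values of 0.00972 and 0.00361 (same test) but did not reach the fold criterion, and Adipor1 (-0.15) was not called. None of the 23 called genes of the 6 lists changed sign under any scaling tried, but with library size alone the lists held 13 rather than 19 lower genes and 8 rather than 4 higher ones. Without control 4 they also held 8 higher genes.

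When the 62 tested genes were divided at a likeness of 0.9, a value chosen after the data were seen, 1 of the 10 genes above it was called, namely Lipe, and its genotypes did not overlap. Of the 52 genes below it, 18 were lower and 4 higher, and 29 had no overlap between the genotypes, where 7.85% of all tested genes were lower, 12.9% higher and 41.2% without overlap. The median log2 fold change was -0.40 above and -0.24 below, and the median standard error was 0.34 above and 0.17 below. Genes above and below 0.9 thus differed in their error as well as in their calls, and neither difference was tested. The lists were chosen with earlier results of these data known, so their shares are not an independent comparison with all genes.

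**Figure D4:**
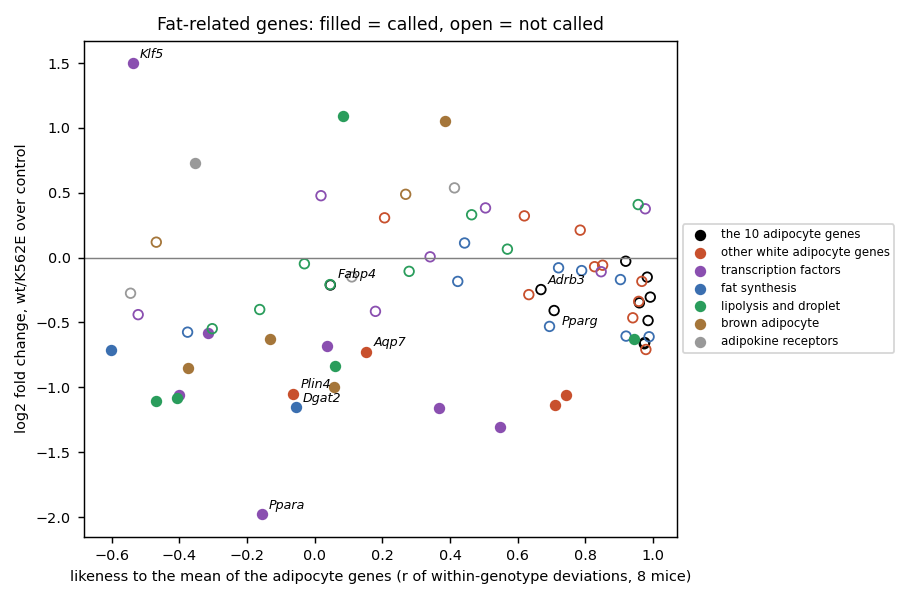
Each point is a fat-related gene. The horizontal axis is its likeness to the adipocyte genes (for each of the 10, to the other 9) and the vertical axis its log2 fold change, with filled points for called genes and open points for the others. None of the 10 adipocyte genes is filled. Among the 62 tested genes of the 6 other lists, 10 lie at 0.9 or above, and 1 of these is filled (lower). Of the 52 below 0.9, 18 are lower and 4 higher, beside 7.85% and 12.9% of all tested genes.

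Markers of other cells moved with genotype beside these genes, and their part in the values above was not tested. Over all tested genes, 7.85% were called lower and 12.9% higher. All 7 macrophage genes were higher, with a summed level of 149.6 to 272.0 CPM in controls and 361.4 to 585.0 CPM with the mutation, the largest change being that of Cd68 (log2 fold change 1.77). Of 7 genes of stromal progenitors, from which adipocytes can form, 5 were higher and none was called lower. Among the higher ones was Pdgfra (1.11), which marks fibro-adipogenic progenitors. The count of higher genes was 3 on leaving out control 2, control 3, or Dnm2 wt/K562E mouse 2 or 3. Ly6a of the same list went the other way (-0.19, adjusted p = 0.033, edgeR quasi-likelihood test) without reaching the fold criterion. Of 7 endothelial genes, 2 were lower, Gpihbp1 (-0.74) and Kdr (-0.64), a count of 0 with library size alone, 1 without Dnm2 wt/K562E mouse 2 and 6 with no fold criterion, and their summed level was 973.9 to 1027 CPM in controls and 677.3 to 786.0 CPM with the mutation. Of 6 tendon genes 5 were higher, led by Tnmd (1.42). All 5 red blood cell genes were lower, Hba-a1 most (-0.997). Of the 8 muscle genes 4 were lower (2 with library size alone), namely Myl3 (-2.12), Ckm (-1.02), Tnnc1 (-0.69) and Myl2 (-0.64), of which Ckm is not particular to slow fibres. None of 5 Schwann cell genes was called, and of 6 lymphocyte genes only Cd79b was tested and it was not called (-0.53), with a summed level of the list of 0.80 to 2.29 CPM in controls and 0.67 to 1.84 CPM with the mutation.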

How the data were processed

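RNA-seq counts of soleus from 4 control and 4 Dnm2 wt/K562E mice were used, numbered as in the sample titles. In 1 mutant mouse the description field spells the mutation differently from the title and genotype, which were followed. The authors trimmed reads with Trimmomatic 0.33, aligned them to GRCm38.p5 with STAR 2.5.1b and counted them with featureCounts, and they deposited raw counts per Ensembl gene and mouse, without normalization. The use of strand is not given in the sources used here, and the sources differ on the library type (poly A enrichment or a total RNA kit). Of the 22880 identifiers, 22647 matched GENCODE M21, of the same build. No exon of the 10 genes overlaps another counted gene, and at most 3.23% of the 31-base stretches of a gene (Retn) occur in transcripts of other genes.

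Genes were filtered with filterByExpr (minimum count 10, minimum total 15), normalized by TMM and tested with the quasi-likelihood F-test of edgeR 4.0.16 in R 4.3.3, adjusted over 14001 genes by Benjamini-Hochberg. Calls required both the adjusted p (0.05) and the log2 fold change (0.58) to pass, the thresholds of the study. Log2 CPM used a prior count of 2. Standard errors and 95% intervals follow from the F statistic. Exact permutation tests used scipy 1.17.1. The fit was tested on simulated data. Alternatives comprised DESeq2 1.42.0, edgeR's exact test, scaling by median-ratio factors or by library size alone, no filter, at least 10 counts in every mouse, 2 replicate blocks, no fold threshold and leaving out each mouse.

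The genes and lists were chosen with earlier results of these data known. Named were the 10 genes, the called genes of the 6 fat-related lists (largest change first, at most 6 a list, Ppard being a seventh of its list), the largest change in each direction in lists of other cells, and the 10 genes most like the adipocyte genes. Other genes, and the ratios to Adipoq, were chosen after the values were seen. P-values judge the genotype difference against the spread between these mice, and limits for 0 reads cover counting error only.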

Additional observations from a re-analysis of the deposited data

How the results depend on the processing

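With both criteria, 0 of the 10 adipocyte genes were called under every alternative that kept all 8 mice, and 0 to 2 when a mouse was left out, the 2 being Pck1 and Retn without control 3. Their log2 fold changes ran from -0.97 to -0.40 (Pck1) and from -0.98 to -0.0521 (Retn) on leaving out each mouse. The median over the 10 genes ran from -0.57 to 0.01. Directions that changed were those of Plin1 (-0.65 to 0.0391 on leaving out a mouse), Cidec (-0.44 to 0.27), Lep (-0.41 to 0.35), Cfd (-0.60 to 0.10) and Adrb3 (-0.53 to 0.10). With library size alone, where the all-gene median was 0.22 and the median of the 10 genes -0.12, Cidec was at 0.0538 and Lep at 0.17, 13 rather than 19 genes of the 6 fat-related lists were lower (13 to 24 over the alternatives that kept all mice, 17 to 21 on leaving out a mouse) and 8 rather than 4 were higher, where leaving out a mouse gave 4 to 8 (8 without control 4). With library size alone, 2865 genes were higher and 564 lower over all genes, against 1806 and 1099. Pparg had an adjusted p under 0.05 in 6 of 16 alternatives (0.0132 to 0.342 over all of them) without reaching the fold criterion.

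The mouse numbers showed no clear pairing of the animals, though correlations over 4 pairs cannot exclude it. Deviations of same-numbered mice correlated at -0.21 to 0.01 by the title numbers and at -0.17 to 0.18 by the description numbers. By the title numbers, 0 of 4 mutant mice correlated best with the control of the same number. This was not counted for the description numbers. With the replicate block by title numbers Cidec was at 0.0348 and Lep at 0.26, and with the block by description numbers at 0.0076 and 0.18. Over all genes the title block gave 1637 higher and 1036 lower genes. No call of the 10 genes changed under either block. Adrb3, with 11 to 44 reads per mouse, has the least depth of the 10 genes.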
